A study of Mus musculus with 8 samples.

Results

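The genes described here encode the nuclear subunits of the mitochondrial respiratory chain and of ATP synthase. They were taken by symbol from the deposited gene table, as names starting with Nduf followed by a, b, c, s or v and a digit, the 4 Sdh genes, and names starting with Uqcr, Cox4 to Cox8 or Atp5. Of 43346 rows, 87 matched. The rows with a -ps suffix, numbering 3, were dropped, as was Cox8c, whose counts summed to less than 100 over the 8 libraries, which left 83 genes. All 83 passed the filter on low counts, as 20987 genes did in all. Of these, 35 belong to complex I, 4 to complex II, 8 to complex III, 18 to complex IV and 15 to complex V. The other 3 are Cox7a2l, a factor that joins complexes III and IV, Atp5s, a coupling factor of ATP synthase, and Atp5sl. Ndufa4 and Ndufa4l2 carry complex I names and were placed in complex IV, where the Ndufa4 protein resides. The symbol rule does not reach Cyc1, Cycs, Ndufab1, Usmg5 and 2010107E04Rik, which also belong to this machinery and were followed as a separate list.

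Complexes I and II pass electrons from NADH and succinate to ubiquinone, complex III passes them on to cytochrome c, and complex IV reduces oxygen. Complexes I, III and IV pump protons, and complex V, the ATP synthase, uses the gradient to make ATP. Neurons depend on this pathway for the energy that synaptic transmission uses. Subunits come from both the nuclear and the mitochondrial genome, except those of complex II, which are all nuclear.

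Total RNA was sequenced from cortex and hippocampus tissue of mice at an age of 1.5 months. Controls carried enhanced green fluorescent protein (GFP), and the others carried a fusion of it with 100 repeats of glycine-arginine (GFP-GR100), a dipeptide repeat protein of the C9orf72 expansion found in amyotrophic lateral sclerosis and frontotemporal dementia. The fusion was built in an adeno-associated virus plasmid; no source used here gives its promoter or the cells that took it up. Each group held 4 mice, 2 females (replicates 1 and 2) and 2 males (replicates 3 and 4), with 1 library per mouse. Beyond the construct, the labels list no allele or agent that separates the groups. The labelled weight of the tissue did separate them, at 111.4 to 126.6 mg in GFP and 71.9 to 85.1 mg in GFP-GR100.

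Total counts ran from 65880460 to 89113010 per library, and the subunit genes took between 0.846% and 1.27% of them. All 15 neuron markers were detected in the labelled tissue. Counts at the rows Yam1, AY036118 and Lars2 were taken as a proxy for ribosomal RNA. How much of them came from ribosomal RNA was not tested. Their share of all counts was 11.4%, 6.74%, 3.80% and 3.54% over GFP 1 to 4. Over GFP-GR100 1 to 4 it was 3.20%, 2.76%, 8.77% and 9.83%. Every library had 0 counts at the 37 mitochondrial chromosome rows, so the 13 proteins that the mitochondrial genome contributes to these complexes were not analysed here.

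The subunit genes were expressed at high levels that differed widely between members. Their median was 65.3 RPKM (counts scaled by the listed gene length and by the library's summed counts), against 3.72 RPKM over all tested genes. Complex IV held the 4 highest levels, with Cox8a at 588 RPKM, Ndufa4 at 397 RPKM, Cox6a1 at 364 RPKM and Cox6b1 at 313 RPKM. Complex V followed with Atp5a1 and Atp5b, the alpha and beta subunits of the catalytic F1 head, at 261 and 248 RPKM. The 7 isoforms of complex IV subunits best known from muscle, lung, testis or low oxygen were much lower, from 0.532 RPKM for Cox8b to 8.95 RPKM for Cox6a2. Median levels of the complexes were 53.2 RPKM for complex I, 55.2 for II, 74.4 for III, 84.6 for IV and 74.2 for V. Subunit genes were also short, with a median listed length of 1322 bases against 3046 bases over all tested genes.

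**Figure D1:**
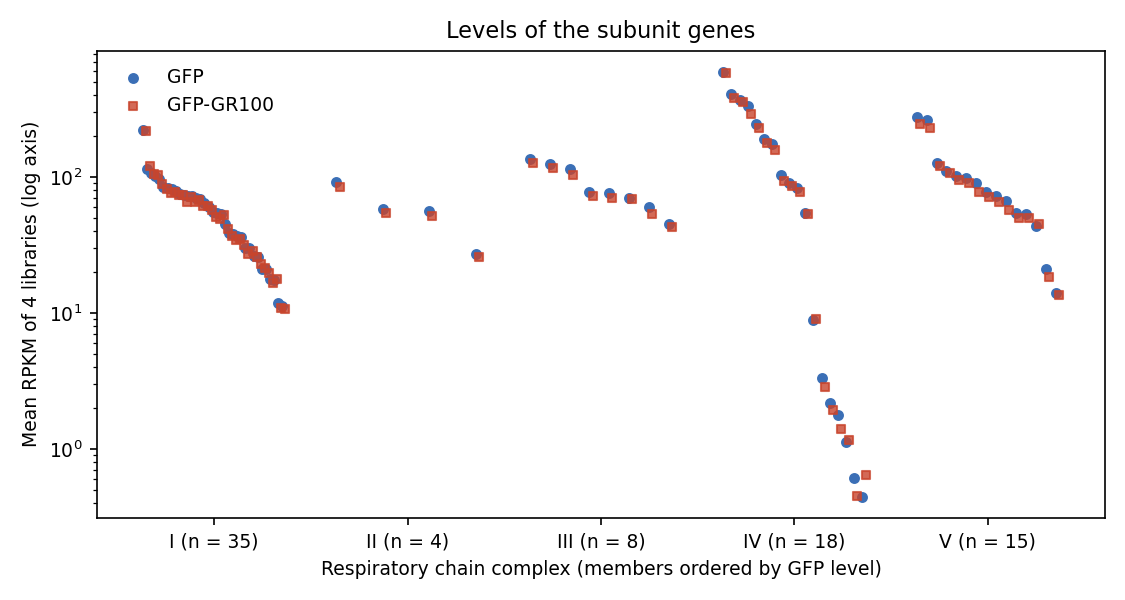
Mean RPKM of each subunit gene (log axis) in GFP (circles) and GFP-GR100 (squares), 4 libraries each, by complex. Circles and squares lie close together for nearly every gene, and the low group in complex IV is the 7 tissue isoforms, at 8.95 RPKM or less.

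To look for motifs at the starts of these genes, RefSeq promoters on GRCm38.p6 (250 bases before to 50 after a start) were matched for 69 of the 83 genes. Motif letters of 3 factors that are known to act on nuclear genes for mitochondria were searched on both strands. The NRF1 motif, spelled out by the capitals of the Ndufa11 sequence given here, stood in 5 of 69 promoters (7.25%), against 0.977% of 27025 promoters of the same length. CCGGAAG, bound by the ETS factor GABP (also called NRF2), stood in 15 (21.7%, against 9.12%), and AAGATGGC, bound by YY1, in 10 (14.5%, against 2.88%). Matches of different motifs overlapped in 0 of the 69 promoters. At least 1 of them stood in 12 of 31 promoters of complex I, 2 of 3 of complex II, 3 of 5 of complex III, 3 of 13 of complex IV and 7 of 14 of complex V. The share of the 27025 promoters with at least 1 motif was not computed, and those promoters were not limited to expressed genes. The bases upstream of 4 of these genes are given as examples from different complexes, 5′ to 3′ on the strand of the gene, with the motif in capitals (for the GABP matches the reverse strand letters, CTTCCGG). Ndufa11 (complex I) lies on the plus strand and its window spans chr17:56717612-56717761. Sdhd (complex II), Uqcrh (complex III) and Atp5e (complex V) lie on the minus strand, at chr9:50603850-50603999, chr4:116075072-116075220 and chr2:174464106-174464251.
Ndufa11: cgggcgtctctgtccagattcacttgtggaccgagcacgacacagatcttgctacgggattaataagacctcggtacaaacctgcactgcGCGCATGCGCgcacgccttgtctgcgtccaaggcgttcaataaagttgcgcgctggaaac
Sdhd: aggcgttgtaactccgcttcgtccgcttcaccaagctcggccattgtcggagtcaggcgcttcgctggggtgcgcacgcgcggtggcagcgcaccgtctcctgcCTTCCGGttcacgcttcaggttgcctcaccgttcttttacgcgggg
Uqcrh: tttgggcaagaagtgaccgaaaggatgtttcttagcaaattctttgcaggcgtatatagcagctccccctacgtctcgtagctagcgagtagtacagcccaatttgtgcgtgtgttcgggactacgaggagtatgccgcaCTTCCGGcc
Atp5e: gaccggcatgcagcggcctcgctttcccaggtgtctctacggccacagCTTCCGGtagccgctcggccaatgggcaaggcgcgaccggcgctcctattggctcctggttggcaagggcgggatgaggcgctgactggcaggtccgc
The motif began 60 bases before the RefSeq start in Ndufa11, 46 in Sdhd, 10 in Uqcrh and 102 in Atp5e. A match describes the letters only.

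The central comparison asked whether subunit genes differed between GFP-GR100 and GFP mice. None of the 83 was called higher or lower by edgeR's quasi-likelihood test with Benjamini-Hochberg adjustment at 0.05, where 2.52% of all tested genes were called (2.19% higher and 0.324% lower). DESeq2, which called 0.83% of its tested genes lower, also called 0, as did limma-voom and limma-trend on RPKM. At an unadjusted p under 0.05, 15 subunit genes were lower in edgeR (7.37% of all tested genes were) and 0 were higher (8.23% of all tested genes were). The fold changes nevertheless pointed mostly one way. For 80 of 83 the log2 fold change was below 0, against 54.6% of all tested genes, with a median of -0.15 (0.904-fold) against -0.02 over all tested genes. Other short, well-expressed genes, defined with the length slopes below, also shifted down, by -0.09 between the group means of their library medians. The 3 genes above 0 were Ndufa1, Cox7a2l and Cox7b2. In bulk tissue, fewer cells of a type and less RNA per cell cannot be told apart. The 15 neuron markers had a median log2 fold change of -0.13, all below 0 and none called, and their summed level was 8141 to 9123 CPM (counts scaled to a common library total, with TMM factors) in GFP and 6914 to 8253 CPM in GFP-GR100. Of the 10 microglia markers, 8 were called higher, with a median of 0.85. The part of these markers in the subunit values was not tested.

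The size of the shift depended on a few libraries. Without GFP 3, the median log2 fold change of the subunit genes was -0.06 and 66 of 83 were below 0, beside a median of -0.002 over all tested genes. Without GFP-GR100 4 the median was -0.09 (-0.03 over all tested genes). With both of these male libraries left out it was -0.02, with 51 of 83 below 0 (-0.002 over all tested genes). Their library means of the subunit genes, 0.29 in GFP 3 and -0.12 in GFP-GR100 4, differ most among males of different groups. A smaller shift was therefore built into leaving out this pair. On log2(RPKM + 0.1), which lacks TMM scaling, the median was -0.08 and 71 were below 0, while the median over all tested genes was 0.04. Over the other single-library omissions the median lay between -0.17 and -0.12.

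**Figure D2:**
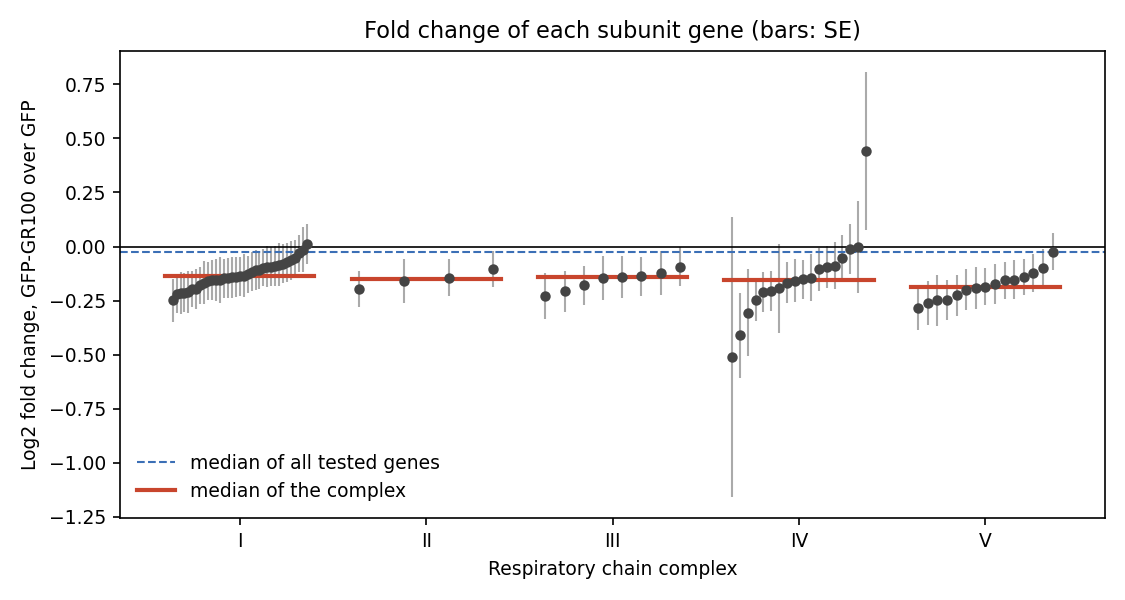
Log2 fold change (GFP-GR100 over GFP) of the 80 subunit genes assigned to complexes I to V, with SE bars, the median of each complex (red) and the median of all tested genes (dashed). Most points sit below 0 in each complex, and the widest bars belong to low tissue isoforms such as Cox8b at -0.51.

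The median log2 fold change was -0.14 in complex I, -0.15 in II, -0.14 in III, -0.15 in IV and -0.19 in V. Below 0 were 34 of 35 genes in complex I, 4 of 4 in II, 8 of 8 in III, 17 of 18 in IV and 15 of 15 in V. Unadjusted p under 0.05 was reached by 6, 1, 1, 3 and 4 of them in that order. Without GFP 3 the medians were -0.05, -0.07, -0.06, -0.06 and -0.11. Without GFP 3 and GFP-GR100 4, a choice with a smaller shift built in, they were -0.004, -0.02, -0.03, -0.06 and -0.07. Differences between complexes were not tested, since the genes of a complex share libraries.

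Within complex I, which oxidises NADH, the 7 core subunits of the matrix arm, the part that holds the redox centres, had a median log2 fold change of -0.15, and the 28 accessory subunits -0.11. Ndufa12, an accessory subunit of the matrix arm with the smallest p and the lowest fold change of the complex, was measured at 43.7, 41.9, 62.2 and 50.1 CPM over GFP 1 to 4, and at 40.8, 33.9, 49.1 and 41.9 CPM over GFP-GR100 1 to 4. The groups overlapped, because the females of GFP lay within the range of GFP-GR100. Its log2 fold change was -0.25 (SE 0.10, adjusted p = 0.25, edgeR). Ndufb9, an accessory subunit of the membrane arm, had the highest level of the complex at 220.5 RPKM. Its values were 130, 125, 181 and 154 CPM in GFP and 127, 119, 172 and 142 CPM in GFP-GR100, with a log2 fold change of -0.07 (SE 0.09). Ndufa1, an X-linked membrane-arm subunit, was nearly equal in both groups, with means of 48.95 ± 8.55 and 49.3 ± 7.74 CPM (SD, n = 4 each).

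Complex II, succinate dehydrogenase, links the chain to the tricarboxylic acid cycle. Sdha, its flavoprotein that oxidises succinate, was the only subunit gene of the 83 whose groups did not overlap, which 3.03% of all tested genes showed in the lower direction and 5.03% in the higher. It was measured at 360.2, 367, 359.9 and 379 CPM over GFP 1 to 4, and at 354, 319.5, 303 and 305 CPM over GFP-GR100 1 to 4. The 4 GFP libraries lay close together, and GFP-GR100 1 came near to them. The means were 366.6 ± 8.89 and 320.4 ± 23.6 CPM (SD, n = 4 each), with a log2 fold change of -0.20 (SE 0.08, adjusted p = 0.28, edgeR), so the difference did not pass the test. Unlike most subunit genes, Sdha did not peak in GFP 3. Sdhc, a membrane anchor that helps to bind ubiquinone, had the smallest shift of the complex, at -0.10 (SE 0.08).

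In complex III, which moves electrons from ubiquinol to cytochrome c, Uqcrc1, a core protein on the matrix side, had the lowest fold change. It was measured at 215, 229, 290.2 and 289 CPM in GFP and at 233, 208, 228 and 196 CPM in GFP-GR100. Only the GFP males stood above the range of GFP-GR100, and the log2 fold change was -0.23 (SE 0.11, adjusted p = 0.32, edgeR). Uqcrh, the hinge protein next to cytochrome c1, whose promoter is printed above, had the smallest p of the complex. Its values were 121, 129, 181 and 145 CPM in GFP and 113, 99.3, 153 and 134 CPM in GFP-GR100, with a log2 fold change of -0.21 (SE 0.09, adjusted p = 0.31). Uqcr11, a small subunit with the highest level of the complex, and Uqcrb, which contacts the ubiquinone site, had log2 fold changes of -0.15 (SE 0.10) and -0.09 (SE 0.09).

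Complex IV, cytochrome c oxidase, is built with different isoforms in different tissues. The 11 general isoforms had a median log2 fold change of -0.15, all below 0. Cox6b1, a subunit facing the intermembrane space, had the smallest p of the complex. It was measured at 139, 149.96, 218 and 184 CPM in GFP and at 143, 123, 166 and 144 CPM in GFP-GR100. The groups overlapped, and the log2 fold change was -0.25 (SE 0.10, adjusted p = 0.26, edgeR). Cox8a, the highest subunit gene by RPKM, was measured at 268, 243, 450.3 and 357 CPM in GFP and at 268, 276, 382 and 322 CPM in GFP-GR100. Its males lay above its females in both groups, while the group difference was -0.05 (SE 0.11, log2). The 7 tissue isoforms had a median of -0.19 with a median SE of 0.20. The lowest and the highest fold change of all subunit genes were in this low group, Cox8b at -0.51 (SE 0.65), on 118 counts over all libraries, and Cox7b2 at 0.44 (SE 0.37), on 183 counts.

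In complex V, the 5 genes of the F1 part (the catalytic head with the central stalk) had a median log2 fold change of -0.23, the 3 genes of the c ring -0.12, and the 7 genes of the peripheral stalk and the remaining membrane part -0.19. Atp5l, subunit g at the membrane, had the smallest p of all subunit genes. It was measured at 31.6, 32.0, 39.0 and 36.0 CPM in GFP and at 27.3, 22.8, 36.9 and 27.5 CPM in GFP-GR100. GFP-GR100 3 lay among the GFP libraries and the other 3 below all of them, with a log2 fold change of -0.28 (SE 0.10, adjusted p = 0.22, edgeR). Atp5a1, the alpha subunit, was measured at 807, 848, 931 and 942 CPM in GFP and at 827, 748, 763 and 676 CPM in GFP-GR100. Only GFP-GR100 1 reached into the GFP range, above GFP 1, and the log2 fold change was -0.23 (SE 0.10, adjusted p = 0.29). Atp5j, the coupling factor F6, had the smallest shift, at -0.02 (SE 0.09).

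Isoform use was compared through 6 ratios of RPKM values within each library. The test was an exact, two-sided permutation of the group labels, which has 70 assignments and a smallest possible p of 0.0286. Unlike the main edgeR fit, it left sex out and exchanged labels between females and males. Atp5g1 and Atp5g3 encode the same mature c subunit with different import sequences. The log2 ratio of Atp5g1 to Atp5g3 was -2.41 ± 0.04 in GFP (SD, n = 4) and -2.54 ± 0.08 in GFP-GR100 (SD, n = 4), and the groups did not overlap. This difference of -0.13 gave an exact p of 0.0286, the smallest this test allows, and a Benjamini-Hochberg value of 0.17 over the 6 ratios. The third c-ring gene, Atp5g2, differed from Atp5g3 by 0.02 between groups (exact p = 0.69). Cox4i2, an isoform known for its response to low oxygen, stood at 0.728% of Cox4i1 in GFP and 0.608% in GFP-GR100, a log2 difference of -0.26 (exact p = 0.14, adjusted 0.43). The remaining differences were 0.08 for Cox6a2 over Cox6a1, -0.08 for Cox7a1 over Cox7a2 and -0.02 for Ndufa4l2 over Ndufa4, with exact p values of 0.31, 0.60 and 0.94.

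The libraries of a group differed among themselves, with males above females in each group. The 76 subunit genes at 10 CPM or more were averaged on the log2 scale relative to the GFP mean. This gave -0.20, -0.18, 0.29 and 0.09 over GFP 1 to 4, against -0.20, -0.34, 0.08 and -0.12 over GFP-GR100 1 to 4. The group difference was -0.14, with an SD over both sexes of 0.23 in GFP and 0.17 in GFP-GR100. Within sexes it was -0.07 in females, whose groups overlapped, and -0.21 in males, whose groups did not, and males exceeded females by 0.38 in GFP and 0.24 in GFP-GR100. GFP 3 was the highest library for 74 of 83 subunit genes, and GFP-GR100 2 the lowest for 56.

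**Figure D3:**
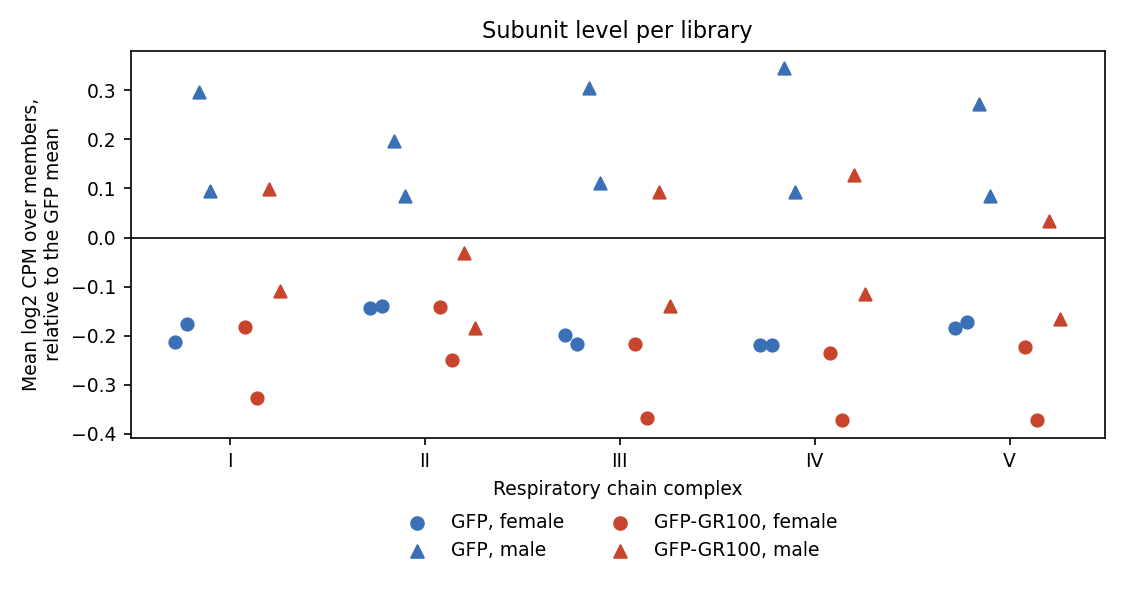
Mean log2 CPM over the subunit genes of each complex at 10 CPM or more, relative to the GFP mean, for the 8 libraries (colour for group, shape for sex). The order of libraries is much alike in complexes I, III, IV and V, with GFP 3 highest and GFP-GR100 2 lowest.

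Gene length moved with this order. In each library, the log2 level of the other genes at 1 CPM or more, relative to the GFP mean, was fitted on their listed length, and the slope per doubling of length was 0.06, 0.05, -0.09 and -0.02 over GFP 1 to 4, against 0.02, 0.04, -0.03 and 0.01 over GFP-GR100 1 to 4. The libraries with a negative slope, in which short genes were relatively high, were the 3 with subunit levels above the GFP mean. Other genes shorter than 2000 bases at 10 CPM or more had medians of -0.18, -0.14, 0.26 and 0.07 in GFP and -0.11, -0.21, 0.05 and -0.09 in GFP-GR100, in close parallel. The group means of these medians differed by -0.09, with 0.004 in females and -0.18 in males. For the 76 subunit genes the differences were -0.14, -0.07 and -0.21 in the same order. With a length-dependent offset for each library, an alternative chosen after seeing the data, the subunit genes had a median log2 fold change of -0.13 between groups, with 76 of 83 below 0 (53.6% of all tested genes were). It called 0 of them (2.92% of all tested genes), and 19 were lower at an unadjusted p under 0.05 (7.66% of all tested genes were).

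**Figure D4:**
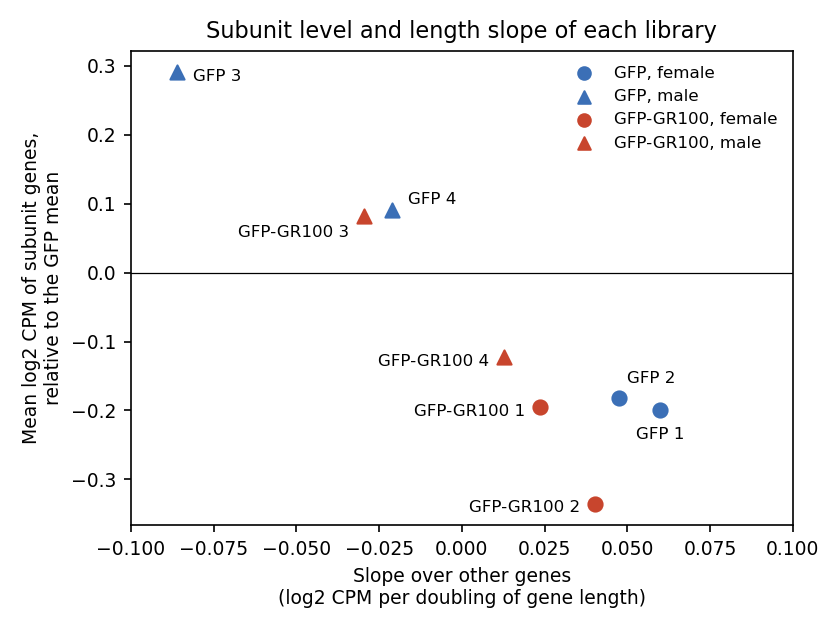
Mean log2 CPM of the 76 subunit genes relative to the GFP mean (vertical axis) against the length slope of the same library (horizontal axis), for the 8 libraries. Subunit levels are above 0 in the 3 libraries with a negative slope, and GFP 3 has the highest subunit level and the lowest slope.

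Males stood above females for most subunit genes. This comparison was added after the values of the libraries had been seen. In the edgeR fit with sex and group, 33 of 83 (39.8%) were called higher in males, against 1.84% of all tested genes, and 0 were called lower. The median male over female log2 fold change was 0.34 over the subunit genes and 0.02 over all tested genes, and 81 of 83 were above 0, all but Sdha and Ndufs1. Other short, well-expressed genes, defined with the length slopes above, also stood higher in males. Their library medians differed between the sexes by 0.32 in GFP and 0.14 in GFP-GR100. For the library means of the subunit genes given above, the differences were 0.38 and 0.24. Atp5j2, a membrane subunit of ATP synthase singled out here for its smallest adjusted p, was measured at 80.8, 80.7, 122 and 105 CPM in GFP and 73.2, 65.6, 109 and 94.7 CPM in GFP-GR100. All 4 males lay above all 4 females, with a log2 fold change of 0.52 (SE 0.09, adjusted p = 0.040, edgeR). Both males exceeded both females for 76 of 83 subunit genes within GFP (30.4% of all tested genes did), for 59 within GFP-GR100 (27.3%), and in both groups for 56 (11.4%). The count of calls changed with single libraries, for the subunit genes and for all tested genes alike. It was 0 without GFP 1, without GFP 2, without GFP 3, without GFP-GR100 1, without GFP-GR100 2 and without GFP-GR100 3, where 0.0235% to 0.0422% of all tested genes were called higher in males. It was 35 without GFP 4 (2.42% of all tested genes) and 57 without GFP-GR100 4 (4.53%). The median male over female log2 fold change of the subunit genes lay between 0.27 and 0.38 in these 8 fits. On RPKM, limma-trend called 0 of them and 0.0381% or 0.0286% of all tested genes (pseudocounts of 0.1 and 1), with medians of 0.35 and 0.34. With the length-dependent offset it was 0 (0.0476% of all tested genes were called), and the median male over female difference was 0.20. In GFP the 2 males had the lower length slopes, and the same was true in GFP-GR100, so the sexes also differed in that measure.

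The group difference was then set out within each sex. The median log2 fold change of the subunit genes was -0.07 in females, with 63 of 83 below 0, beside -0.04 and 57.1% over all tested genes. In males it was -0.20, with 78 below 0, beside 0.003 and 49.7% over all tested genes. The male value was the lower one for 58 of 83 (46.5% of all tested genes). The share at the ribosomal RNA proxy rows also differed between groups within each sex, in opposite directions. GFP-GR100 minus GFP was -6.09 percentage points in females and 5.63 in males. The part of this share in the within-sex values was not tested. The interaction of sex and group was called for 0 subunit genes by edgeR (0.0524% of all tested genes), and 8 had an unadjusted interaction p under 0.05, as 16.4% of all tested genes did. The smallest was for Atp5d, the delta subunit of the central stalk, which was measured at 137, 147, 228 and 197 CPM in GFP and 154, 137, 153 and 142 CPM in GFP-GR100. Both GFP males stood above the other libraries. The log2 fold changes were 0.03 in females and -0.53 in males (adjusted p = 0.14, edgeR). Next came Uqcrc1 (-0.01 and -0.45, adjusted p = 0.20). The row of Atp5d overlaps that of Dos on the opposite strand, and Dos had 175% of its counts. No source used here says whether strand was used in counting.

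**Figure D5:**
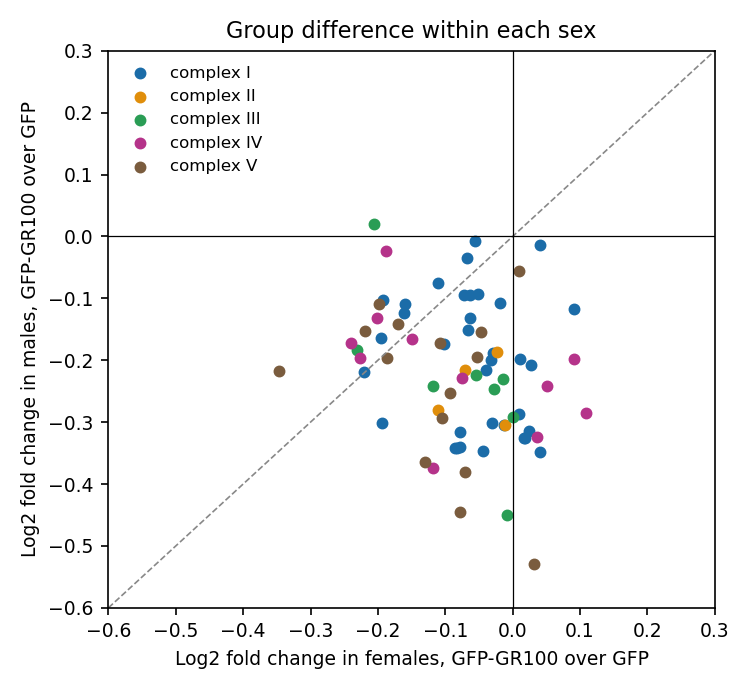
Log2 fold change (GFP-GR100 over GFP) in females (horizontal axis) and males (vertical axis) of 73 subunit genes, without the tissue isoforms and the 3 genes outside complexes I to V. The dashed line marks equal values, and 55 genes lie below it.

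Genes that work beside the subunits were followed as lists. The 5 further subunits and electron carriers outside the symbol rule were all below 0, with a median log2 fold change of -0.17 and none called. Assembly factors, which build the complexes, were not called either, and their medians were -0.09 for complex I (13 of 16 below 0), -0.07 for II (3 of 4), -0.15 for III (5 of 6), -0.06 for IV (16 of 23) and -0.09 for V (5 of 5). Cmc2, a complex IV assembly factor, came nearest the threshold, from 11.1 ± 0.738 CPM in GFP to 8.34 ± 0.493 CPM in GFP-GR100 (SD, n = 4 each), with a log2 fold change of -0.41 (SE 0.10, adjusted p = 0.0501, edgeR) and groups that did not overlap. With the length-dependent offset its adjusted p was 0.045. The smallest p of the other assembly lists belonged to Timmdc1 (I, -0.26), Sdhaf2 (II, -0.21), Bcs1l (III, -0.20) and Tmem70 (V, -0.23).

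Of the 16 genes of the tricarboxylic acid cycle, 15 were below 0 with a median of -0.17 and none called, and Suclg1, a subunit of succinyl-CoA ligase, had the smallest p at -0.20. The 11 carriers and channels of the mitochondrial membranes were all below 0 with a median of -0.13, and the ADP/ATP carrier Slc25a5 had the smallest p at -0.16. The 17 regulators of mitochondrial biogenesis had a median of -0.05, with 11 below 0 and Polg2, of the mitochondrial DNA polymerase, smallest in p at 0.16. In glycolysis 18 of 19 genes were below 0 with a median of -0.22, and the exception, hexokinase 2 (Hk2), was called higher. Within sexes, which also differed in the ribosomal RNA proxy share as given above, the median of this list was 0.002 in females and -0.40 in males. Hk2 stood at 4.26 ± 1.02 CPM in GFP and 9.07 ± 1.01 CPM in GFP-GR100 (SD, n = 4 each), a log2 fold change of 1.11 (SE 0.13, adjusted p = 0.00049, edgeR).

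Markers of the cell types the tissue holds were measured in the same fit, and none was at 0 counts. Besides neurons and microglia, the median log2 fold change was 0.08 for 8 astrocyte markers (1 below 0) and -0.31 for 8 oligodendrocyte markers (8 below 0). It was 0.11 for 7 endothelial markers (3 below 0), -0.28 for 8 pericyte and smooth muscle markers (5 below 0) and 0.34 for 5 red cell markers (0 below 0). None of the markers in these 5 lists was called. For 8 choroid plexus markers the median was -1.36, with all below 0, and Folr1 was called lower at -2.26. The smallest p in each of the other lists was that of Nefl (-0.28), Sox9 (0.29), Mog (-0.37), Slco1a4 (0.52), Acta2 (-1.04) and Alas2 (0.56), and in microglia Trem2, at 1.42, led the called genes. The part of these cell types in the subunit values was not tested.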

How the data were processed

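The authors deposited 1 table with whole-number counts per gene and RPKM values for 8 libraries, made with TopHat2 version 2.1.0 on mm10, per the submitters' processing notes. CASAVA, R version 3.4.1 and DESeq2 stand in the same notes. RPKM as deposited was scaled to the sum of the gene counts, with recomputed ratios between 1.00023 and 1.00024. No source used here gives the counting tool, the annotation release or the use of strand. Listed gene lengths are as deposited.

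Here counts were fitted with edgeR 4.0.16 in R 4.3.3 (filterByExpr with a minimum count of 10, TMM, robust quasi-likelihood test, sex and group in the model) over 20987 genes, with Benjamini-Hochberg adjustment over all of them. The SE is the fold change divided by the root of its F statistic. CPM values are TMM-scaled. Each library came from 1 mouse, and replicate numbers follow accession order and pair no animals. Alternatives used DESeq2 1.42.0 and limma 3.58.1 (voom, and trend on log2(RPKM + a pseudocount)). All but limma-trend were also run on simulated counts with changes larger than that of any subunit gene. The simulation had no sex effect and no library differences in length slope or ribosomal RNA proxy share. It therefore cannot show how the fits handle shifts as small as these. A depth of 3 counts equals 0.0337 to 0.0455 CPM per library. No libraries of a group agreed within sampling noise (chi-square per degree of freedom of at least 16.6). Members and lists were chosen with earlier results of these data known. Named genes were, in each complex, those with the smallest p, the highest and lowest fold change and the highest RPKM, with genes whose groups did not overlap, both genes of each ratio and the 3 smallest interaction p values; in each other list, called genes (up to 3) or the smallest p. One gene that this rule names is not reported here. Atp5b, Atp5j2 and the printed promoters were chosen after values were seen. Subunit rows overlapping another row with at least 100 counts numbered 22, and for Ndufb2, Ndufa4l2 and Atp5d that row had more counts.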

Additional observations from a re-analysis of the deposited data

Results flagged for a closer look

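Dixon's criterion was applied to 84 groups of 4 libraries. Each held a named gene, a ratio, a complex mean, the mean of the subunit genes or the length slope in one group. In 2 of them, 1 library stood apart from the others by more than the criterion allows. Chance gives such a flag in about 1 of 20 groups. Cox6a1, the general isoform of a complex IV subunit, was at 283 CPM in GFP-GR100 3, against 228 to 237 CPM in the other GFP-GR100 libraries. The log2 ratio of Ndufa4l2 to Ndufa4 was -8.26 in GFP-GR100 3, against -7.45 to -7.31 in the others of that group, and without GFP-GR100 3 the group difference of this ratio was 0.19 in place of -0.02. The row of Ndufa4l2 shares 30 bases with Shmt2 on the opposite strand, which had 939% of its counts.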

How the results depend on the processing

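Counts of subunit genes called for group were 0 in all 19 alternatives, and the 5 complex medians stayed below 0 in each. The smallest adjusted p of a subunit gene was 0.0652 with the ribosomal RNA proxy share as covariate and 0.0984 without GFP-GR100 3. With the share of all tested genes beside it, the count called higher in males was 53 without a filter (3.41%), 55 with DESeq2 (3.29%), 19 with limma-voom (1.07%), 0 with limma-trend on RPKM plus 0.1 or 1 (0.0381% and 0.0286%), 58 with the rRNA covariate (6.31%), 21 without GFP 3 and GFP-GR100 4 (0.725%), 0 with the length offset (0.0476%) and 0 to 57 on leaving out 1 library (0.0235% to 4.53%).

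Signs changed for some genes, not only for those near 0. In the main fit Cox8b was at -0.51, Uqcr11 at -0.15 and Cox4i1 at -0.14. Cox6a2 had log2 fold changes of 0.00296 without a filter, 0.0282 at a mean of at least 1 CPM, 0.0562 and 0.0491 on RPKM with pseudocounts of 0.1 and 1, and 0.00197 with the length offset. Atp5j had 0.0164 with that filter, and 0.0470 and 0.0457 with the RPKM pseudocounts, and Cox8a 0.0159 with each. Without GFP 3 and GFP-GR100 4, values were 0.0498 for Ndufb9, 0.0170 for Uqcr11, 0.124 for Cox8a, 0.0817 for Atp5j, 0.0290 for Cox4i1, 0.0928 for Cox6a2, 0.0981 for Cox6a1 and 0.0189 for Atp5g2. As given above, these males differ most in their library means of the subunit genes, so a smaller shift was built into that choice. The cause was not tested. Leaving out 1 library gave -0.0371 to 0.101 for Ndufa1, -0.128 to 0.00532 for Ndufb9, -1.33 to 0.263 for Cox8b, -0.113 to 0.0708 for Cox8a, -0.0613 to 0.0626 for Atp5j, -0.0608 to 0.0574 for Cox6a2, -0.146 to 0.0350 for Cox6a1, -0.144 to 0.194 for Ndufa4l2 over Ndufa4 and -0.00661 to 0.0640 for Atp5g2 over Atp5g3. Cox7b2 and Cox8b had no value at a mean of at least 1 CPM. No paired analysis was possible because the replicate numbers follow accession order. The depth of Cox8b and Cox7b2, at 118 and 183 counts in all, limits what their values can show.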
